A study of Mus musculus with 64 samples.

Results

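The variation among 24 fetal livers was described within their gender labels. The livers, 12 of gender M and 12 of gender F, were the 24 samples with the Stage label fetal liver among 64 in the series, and the genes were the 9502 autosomal genes with a mean CPM (count scaled to a common library total) of at least 10 among 23338 listed. Every fetus was a C57BL/6 mouse (C57BL/6 J in the methods of the study) taken late in gestation, with no treatment given in the labels, and the study states that fetuses were sexed by PCR for the Y-linked gene Sry. Libraries were made from total RNA of 1 liver each with a stranded kit that does not select polyadenylated RNA, and were pooled for sequencing. The litter of each fetus and the lane of each library are not given in the sources used here, so litter and lane cannot be told apart from the differences described. Livers are named by the numbers in their titles, 1 to 12 for gender M and 13 to 24 for gender F. Each level is given in CPM after TMM scaling, an adjustment of library totals for composition, and each deviation is log2(CPM + 0.5) less the mean of that label, so that no difference between the labels enters.

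The fetal liver is a blood-forming organ as well as a young metabolic one. Red cell precursors divide beside hepatoblasts and hepatocytes, together with maturing neutrophils, megakaryocytes, macrophages and early B cells, and toward birth hepatocytes switch on urea cycle, bile acid and cytochrome P450 genes while blood formation begins to move to the bone marrow. The pancreas, stomach, intestine and diaphragm lie against the liver at dissection.

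Reads on genes numbered 5145371 to 8499603 per liver, and 3 reads, taken as the detection floor, stood for 0.353 to 0.583 CPM. Such floors cover counting error only. All 12 libraries of gender M held over 10 CPM of the Y-linked gene Ddx3y and under 10 CPM of Xist, and all 12 of gender F the opposite. Among the 132 pairs of livers within a label, the chi-square per degree of freedom ran from 2.50 to 23.97 (median 5.35). A value of 1 stands for no difference beyond sampling noise, so no pair differed by read sampling alone. The value cannot tell whether 2 separately made libraries came from the same liver. Alb and Trf, the albumin and transferrin genes of hepatocytes, lay at 15238 to 21514 CPM and 13856 to 20073 CPM across all livers. Livers 11, 14 and 15 stood apart on the first principal component and male liver 12 on the second, with a score of -20.97 against -11.6 in the next liver, and values without them are given where a result rests on them.

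Most autosomal genes varied little among livers of a label. The standard deviation (SD) of the deviations, on 22 degrees of freedom, had a median of 0.147 on the log2 scale, with a 5th percentile of 0.0815, a 95th of 0.316 and a 99th of 0.478. Counting error alone would give a median SD of 0.0844, and 3592 genes (37.8%) had an SD over 2 times their own counting SD. An SD above 0.5 was found for 80 genes and above 1 for 19. Across genes, which are not independent replicates, the SD in males and in females had a Spearman correlation of 0.594, and the 100 widest genes of the labels shared 32, or 40 without livers 14 and 15. Of the 25 genes with the largest SD, 15 remained among the 25 widest when livers 11, 14 and 15 were left out.

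The widest gene of all was Ctrb1, which encodes the pancreatic digestive enzyme chymotrypsinogen. In males its level ran from 0 to 222 CPM with a median of 0.165 CPM, and liver 12 was the highest, followed by liver 11 at 72.3 CPM and liver 5 at 8.95 CPM. In females it ran from 0 to 392 CPM with a median of 1.33 CPM, and liver 15 was the highest, followed by liver 24 at 92.1 CPM, liver 14 at 56.5 CPM and liver 20 at 15.3 CPM. In 7 of 24 livers it was at 0. High livers thus occurred under both labels, and most other livers were at or near the detection floor. The SD of Ctrb1 was 3.23, 2.62 without livers 11, 14 and 15 and 2.91 without liver 12.

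Cel, which encodes a bile salt-activated lipase of pancreatic juice, followed the same livers, with 109 CPM in liver 12, 37.9 CPM in liver 11, 237 CPM in liver 15 and 62.7 CPM in liver 24. The elastase gene Cela2a reached 69.0 CPM in liver 12 and 194 CPM in liver 15. The carboxypeptidase genes Cpb1 and Cpa1 reached 156 and 135 CPM in liver 15 against female medians of 0.306 and 0.560 CPM. Over the 24 livers, as a description, the deviations of Ctrb1 and Cel had a Pearson correlation of 0.993, with 0.989 in males and 0.997 in females. When the 100 widest genes (SD of at least 0.470) were grouped by average linkage at a correlation of 0.6, 6 groups held 84 of them, and Ctrb1 led a group of 7 with Cel, Cela2a, Cpb1, Cpa1, Cela1 and Pnliprp1. The mean deviation of that group was 5.23 in liver 15, 4.79 in liver 12 and 3.38 in liver 11.

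The list of pancreatic markers held 22 genes, of which 7 passed the filter on mean CPM. Their passing came mostly through the livers where they were high, since 2 of the 7 had a median of at least 10 CPM. The summed level of all 22 ran from 74.4 to 792 CPM in males (median 88.4 CPM) and from 102 to 1637 CPM in females (median 116 CPM). Spink3, a trypsin inhibitor gene, made up most of the sum in the low livers and was even, at 60.9 to 105 CPM with an SD of 0.121. The colipase gene Clps reached 80.3 CPM and the trypsinogen gene Prss1 40.7 CPM, both in liver 15. The lipase gene Pnlip was at 0 in every liver, and the amylase gene Amy2a5 was at 0 in all but liver 15, where it was 0.126 CPM. The hormone genes of the islets were low, with at most 4.78 CPM of Ins1, 3.77 CPM of Ins2 and 3.27 CPM of Gcg. Trypsinogen and elastase genes have near-identical copies among which the counting could have split reads, so the level of a single copy is uncertain.

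Promoters of Ctrb1 and Cel are shown because these genes moved together most closely among the widest genes. Sequences, from RefSeq on GRCm38.p6, run from 250 bases before to 50 after the start of the gene. Capitals mark TTTCCC, searched on both strands, the letters of the box bound by RBPJ in the acinar factor complex PTF1. The Ctrb1 promoter (chr8:111690961-111691260, minus strand) held it at -195 from the start and the Cel promoter (chr2:28563354-28563653, minus strand) at -86, there on the opposite strand. It was in 5 of the 6 matched promoters among the 7 pancreatic genes and in 6799 (25.2%) of 27025 promoters in all. A match is a description of letters and not a shown binding site.
Ctrb1: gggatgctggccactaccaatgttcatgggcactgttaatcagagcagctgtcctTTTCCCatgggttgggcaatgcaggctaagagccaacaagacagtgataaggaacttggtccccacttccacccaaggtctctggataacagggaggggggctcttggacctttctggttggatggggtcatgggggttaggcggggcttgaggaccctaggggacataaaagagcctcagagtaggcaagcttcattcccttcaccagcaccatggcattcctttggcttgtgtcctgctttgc
Cel: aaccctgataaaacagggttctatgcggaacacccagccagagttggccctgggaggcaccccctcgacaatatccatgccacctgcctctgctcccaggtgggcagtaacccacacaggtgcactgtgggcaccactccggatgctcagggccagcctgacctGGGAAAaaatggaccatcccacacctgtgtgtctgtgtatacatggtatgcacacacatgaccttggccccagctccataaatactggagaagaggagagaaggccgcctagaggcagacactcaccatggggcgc

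The largest group among the widest genes held 43 genes, led by Dmbt1, a mucosal scavenger receptor gene, and every one of the 43 was highest in female liver 14. Dmbt1 was 595 CPM there, 28.7 CPM in liver 15 and at most 4.54 CPM in males. Apoa4, an apolipoprotein gene of enterocytes, was 1943 CPM in liver 14, and the next highest liver of either label held 3.91 CPM. Lct, which encodes the milk sugar enzyme lactase, was 509 CPM in liver 14 and at most 2.29 CPM elsewhere. Fabp2, the intestinal fatty acid binding protein gene, was 519 CPM against at most 5.40 CPM elsewhere. The brush border gene Vil1 was 197 CPM, the mucin gene Muc13 299 CPM and the goblet cell gene Fcgbp 424 CPM in that liver. Liver 14 was also highest for the smooth muscle genes Myh11 (275 CPM) and Acta2 (166 CPM). Cdx1 and Cdx2, transcription factors that specify the intestine, lay below the filter on mean CPM and were 12.1 and 23.8 CPM in liver 14, and at most 0.132 and 0.185 CPM in every other liver, under the detection floor.

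The mean deviation of the 43 genes was 3.25 in liver 14 and 0.187 in liver 15, which came next. Their mean pairwise correlation was 0.882 in females and 0.063 in males, and 30 of the 43 had a median of at least 10 CPM. Since the genes were grouped by their correlation over these same livers, a high value was built into the grouping. A value without liver 14 is not given. The list of 14 stomach and intestine markers had 4 genes past the filter, and its summed level was 72.5 to 130 CPM in males and 77.6 to 1168 CPM in females, with medians of 94.9 and 104 CPM. No marker of that list was at 0 in all livers. The stomach genes Gkn1, Gkn2 and Gkn3 did not exceed 0.263 CPM in any liver. The SD of Apoa4 was 2.13 over all livers and 0.557 without livers 11, 14 and 15.

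Male liver 9 differed in skeletal muscle genes. The embryonic myosin gene Myh3 was 29.2 CPM there and at most 0.591 CPM in the other 23 livers, and the perinatal myosin gene Myh8 was 17.1 CPM against at most 1.42 CPM. The 16 markers of muscle and heart summed to 12.1 to 108 CPM in males (median 15.6 CPM) and 13.7 to 31.6 CPM in females (median 18.4 CPM), and none of the 16 passed the filter on mean CPM. The 9 skin markers summed to at most 9.33 CPM. Of the 9 kidney and adrenal markers, Cyp11b1 was at 0 in all livers and Hsd3b1, at 84.3 to 328 CPM, made up most of the sum of 88.5 to 333 CPM.

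**Figure D1:**
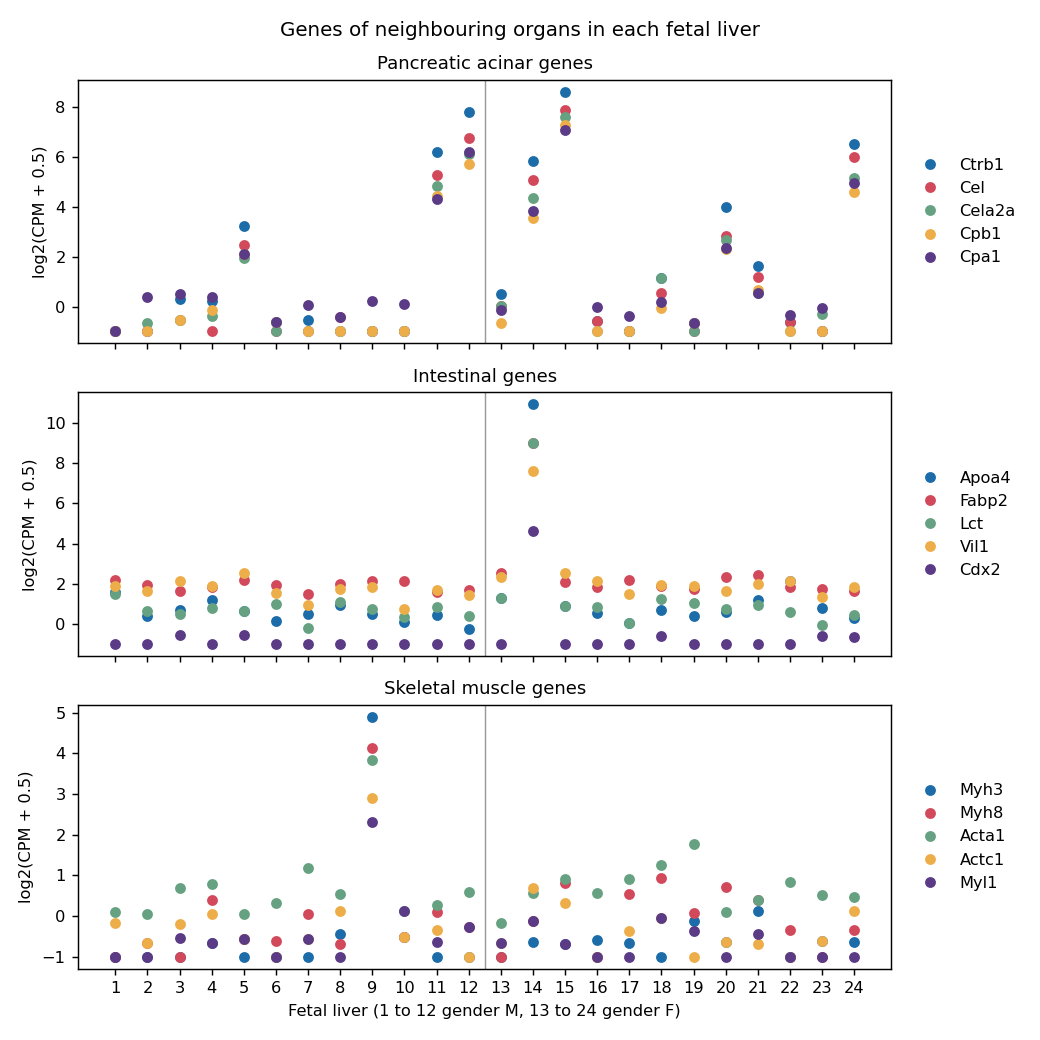
Levels of 15 genes in each of 24 fetal livers, with liver number on the x axis and log2(CPM + 0.5) on the y axis where -1 is a level of 0 and the vertical line parts the labels. Pancreatic genes are high in livers 11, 12, 14, 15 and 24, intestinal genes in liver 14 and skeletal muscle genes in liver 9.

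The next group held mainly genes of hepatocytes. It was led by Cyp2c69, a cytochrome P450 gene, and its 19 genes included Prlr, the prolactin receptor, Cyp2c40, Cyp2e1, Cyp7a1, the rate-limiting enzyme of bile acid synthesis, Igfbp2, Fgl1 and Onecut1. Cyp2c69 was 0.504 to 64.9 CPM in males (median 22.1 CPM) and 4.05 to 49.6 CPM in females (median 13.2 CPM). It was lowest in liver 12 and highest in liver 4 among males, and lowest in liver 22 and highest in liver 21 among females. Prlr was 1.34 CPM in liver 12 against a male median of 33.4 CPM, and 4.198 CPM in liver 22 against a female median of 17.8 CPM. Cyp7a1 ran from 28.7 CPM in liver 12 to 154 CPM in liver 4, and from 52.5 CPM in liver 24 to 152 CPM in liver 21. The labels overlapped for each of these genes.

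The mean pairwise correlation of the 19 genes was 0.754, with 0.802 in males and 0.699 in females, and 0.679 without liver 12. As the genes were grouped by their correlation over these same livers, a high value was built into the grouping. Their mean deviation was lowest in liver 12, at -1.77, and highest in livers 4 (0.869), 15 (0.775) and 21 (0.736). Cyp2c69 had an SD of 1.29, which was 1.36 without livers 11, 14 and 15 and 0.944 without liver 12. Prlr had one of 1.27, and 1.02 without liver 12. The genes most like Cyp2c69 over the 24 livers were Gm16551, Cyp2c40, Cyp2c68, Fgl1 and Apcs, with correlations of 0.966, 0.964, 0.949, 0.937 and 0.936. Members of the Cyp2c family are near-identical, so reads could be split among them.

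Of the 34 genes listed for hepatocyte maturation, 23 passed the filter, with a median SD of 0.279, and 19 of the 23 lay above the median SD of all genes. Cps1, which starts the urea cycle, ran from 994 CPM in liver 12 to 2202 CPM in liver 1 and from 1017 CPM in liver 24 to 2176 CPM in liver 13. Serpina6, the corticosteroid carrier gene, went the other way, with its highest levels of 664 CPM in liver 12 and 636 CPM in liver 24. The list's mean deviation was -0.43 in liver 12 and -0.32 in liver 24, and 0.27 in liver 1 and 0.26 in liver 13. Livers 12 and 24 also held 222 and 92.1 CPM of Ctrb1. Over all 24 livers the mean deviations of the pancreatic and maturation lists had a Pearson correlation of -0.22 and a Spearman correlation of -0.02, with -0.48 in males and 0.04 in females. The Pearson value was -0.57 without livers 11, 14 and 15 and 0.04 without liver 12, and the part of pancreatic RNA in the lower values was not tested.

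Genes that define hepatocyte identity varied less. The 20 measured of 21 had a median SD of 0.149, and Alb an SD of 0.138. Acute phase genes, which encode plasma proteins that rise in inflammation, had a median SD of 0.266 for 10 genes, with Hp, the haptoglobin gene, at 416 to 783 CPM in males and 409 to 946 CPM in females. The mean deviations of the maturation and acute phase lists had a Pearson correlation of 0.82 and a Spearman correlation of 0.79 over the 24 livers, and those of identity and maturation 0.75 and 0.76. These and the following correlations between lists compare values from the same libraries, and none was tested.

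Genes of the red cell lineage varied together. Of 40 erythroid symbols listed, some naming the same gene, 36 were found in the counts and 28 passed the filter. All 28 had an SD above the median of all genes, with a median of 0.210. Their mean pairwise correlation was 0.738, against 0.011 over all tested genes. Slc4a1, the anion exchanger of red cells, was 2281 to 3264 CPM in males (median 2637 CPM) and 2120 to 3348 CPM in females (median 3039 CPM). It was lowest in livers 4 and 15. The erythroid transcription factor gene Klf1 ran from 124 CPM in liver 11 to 233 CPM in liver 12, and from 143 CPM in liver 15 to 257 CPM in liver 22. The list's mean deviation was lowest in livers 15 (-0.42), 14 (-0.31) and 4 (-0.23), and highest, at 0.25, in livers 12 and 23. Livers 14 and 15 also held high levels of connective tissue genes. The erythroid list and the list of stellate and mesenchymal genes had a Pearson correlation of -0.76 (Spearman -0.63), with -0.60 in males, -0.83 in females and -0.44 without livers 11, 14 and 15, and the part of other tissue in the low erythroid values was not tested. In bulk tissue, fewer cells of a type and less RNA per cell cannot be told apart.

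Cell cycle genes moved with the erythroid genes. All 24 listed G2 to M genes passed the filter, with a median SD of 0.173 and a mean pairwise correlation of 0.847. Mki67, a marker of dividing cells, was 2821 to 4149 CPM in males (median 3492 CPM) and 2427 to 3919 CPM in females (median 3398 CPM), lowest in livers 4 and 14. The mitotic kinase genes Aurka and Plk1 were highest in male liver 12, at 133 and 65.8 CPM, and lowest in female liver 15, at 76.9 and 37.7 CPM. The mean deviations of the erythroid and G2 to M lists had a Pearson correlation of 0.93 (Spearman 0.89), with 0.93 in each label and 0.89 without livers 11, 14 and 15. The G1 to S list, 26 genes of DNA replication, followed the G2 to M list at 0.96 (Spearman 0.94) and the erythroid list at 0.83 (Spearman 0.80). Among the genes most like Mki67 were the erythroid spectrin gene Spna1, at 0.958, and the mitotic gene Cenpf, at 0.962.

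Hepatocyte maturation genes, among others, ran against the cell cycle. The mean deviations of the maturation and G1 to S lists had a correlation of -0.69 (Spearman -0.77), with -0.91 in males, -0.53 in females, -0.86 without livers 11, 14 and 15 and -0.64 without liver 12. Against the erythroid list the value was -0.60 (Spearman -0.59). The opposite movement was not particular to maturation genes, whose mean pairwise correlation was 0.377. Against the G1 to S list, genes of the insulin and fasting response had -0.80. Hepatocyte identity, acute phase and endothelial genes had -0.40, -0.43 and -0.50, and -0.81, -0.86 and -0.82 without livers 11, 14 and 15. Some lists went the other way, such as cholesterol and fatty acid synthesis genes at 0.48. CPM are shares of a library, and the part of that in the opposite movement was not tested. In liver 12 the maturation list was lowest and both cell cycle lists were highest among males, while in female liver 14 the G1 to S list was lowest, at -0.38, with maturation near 0.

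Promoters of Plk1 and Aurka are shown as members of the most closely correlated cell cycle list. Capitals mark TTTGAA, the letters of the cell cycle homology region, searched on both strands. The Plk1 promoter (chr7:122159185-122159484, plus strand) held it at 30 and the Aurka promoter (chr2:172370521-172370820, minus strand) at 32 from the start. It was in 14 of 20 matched promoters of the 24 G2 to M genes and in 18.1% of all promoters.
Plk1: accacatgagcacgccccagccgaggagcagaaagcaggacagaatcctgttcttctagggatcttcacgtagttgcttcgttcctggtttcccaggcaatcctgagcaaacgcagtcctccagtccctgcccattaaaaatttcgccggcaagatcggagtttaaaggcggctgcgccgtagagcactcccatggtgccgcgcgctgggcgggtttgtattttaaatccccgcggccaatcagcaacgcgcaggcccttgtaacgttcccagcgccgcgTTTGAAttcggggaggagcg
Aurka: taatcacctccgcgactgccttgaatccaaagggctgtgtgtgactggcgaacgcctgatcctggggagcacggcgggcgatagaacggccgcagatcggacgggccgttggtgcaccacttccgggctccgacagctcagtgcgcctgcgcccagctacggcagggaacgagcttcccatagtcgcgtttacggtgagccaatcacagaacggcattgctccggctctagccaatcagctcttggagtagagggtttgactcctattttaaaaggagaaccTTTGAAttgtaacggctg

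Histone genes of the replication-dependent clusters, transcripts without a poly(A) tail, varied more than the other cell cycle genes. The 54 that passed, of 68, all lay above the median SD of all genes, with a median SD of 0.262. Hist2h3b was 16.6 to 36.6 CPM in males and 20.6 to 69.8 CPM in females, where liver 22 was the highest. The mean deviation of the list was 0.37 in liver 12 and 0.34 in liver 22, and -0.40 in livers 11 and 15. In livers 23 and 24 it was -0.33, while the G2 to M list was at 0.17 and 0.19 and the G1 to S list at 0.06 and 0.14. The histone list had a correlation of 0.61 with the G1 to S list. Histone genes are close copies of each other, so the counts of single genes are uncertain.

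Neutrophil genes were highest in livers 4 and 13. The 23 listed symbols, some naming the same gene, gave 21 genes in the counts, and all 21 passed the filter. All 21 lay above the median SD of all genes, with a median SD of 0.305. S100a8, which encodes a calcium-binding protein of neutrophils, was 300 to 549 CPM in males (median 466 CPM), lowest in liver 11 and highest in liver 4. In females it was 328 to 653 CPM (median 453 CPM), lowest in liver 14 and highest in liver 13. The granule protease gene Mmp8 was 57.9 to 124 CPM in males and 54.3 to 135 CPM in females, again highest in livers 4 and 13. S100a9 and Lyz2 were the genes most like S100a8, with correlations of 0.979 and 0.963. The mean deviation of the list was 0.59 in liver 13 and 0.39 in liver 4, and -0.47 in liver 14, -0.43 in liver 5 and -0.41 in liver 11.

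Megakaryocyte genes were high in livers 4 and 13 too. Pf4, a platelet chemokine gene, was 28.8 to 63.1 CPM in males and 27.9 to 81.5 CPM in females, highest in livers 1 and 13 and lowest in livers 11 and 24. The 11 measured of 18 had a median SD of 0.336, the largest among the blood lists, and their mean deviation was 0.78 in liver 13 and 0.36 in liver 4, and -0.59 in liver 24. The neutrophil and megakaryocyte lists had a correlation of 0.83 (Spearman 0.78), with 0.71 in males and 0.89 in females. The movement was not particular to these blood lists. Against the neutrophil list, acute phase, hepatocyte identity and endothelial genes had 0.76, 0.71 and 0.59, and 0.93, 0.85 and 0.87 in females. Some lists went the other way, such as imprinted genes at -0.67. The neutrophil and erythroid lists had one of -0.21 (Spearman -0.29), and -0.62 without livers 11, 14 and 15.

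B lineage genes were lowest in liver 14, where the mean deviation of 6 measured genes of 14 was -0.76. The recombinase gene Rag1 was 35.0 CPM there, against a female median of 58.6 CPM and 72.1 CPM in liver 20. Liver 14 also held 1943 CPM of Apoa4. The mean deviations of the B lineage list and the stomach and intestine list had a Pearson correlation of -0.58 (Spearman -0.05), with 0.08 in males, -0.71 in females and 0.21 without livers 11, 14 and 15, and the part of intestinal RNA in the low B lineage value was not tested. Macrophage genes formed a looser group, with a mean pairwise correlation of 0.416 for 13 genes. Marco, a scavenger receptor gene, and Clec4f, a Kupffer cell lectin gene, had SDs of 0.440 and 0.437, while Mrc1 had 0.140. Marco was highest in livers 4 (191 CPM) and 23 (196 CPM), and Clec4f in liver 2 (83.5 CPM) among males and liver 16 among females, where the next highest held 96.0 CPM. The 9 measured of 11 blood progenitor genes had a mean pairwise correlation of 0.035, close to that of all genes.

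**Figure D2:**
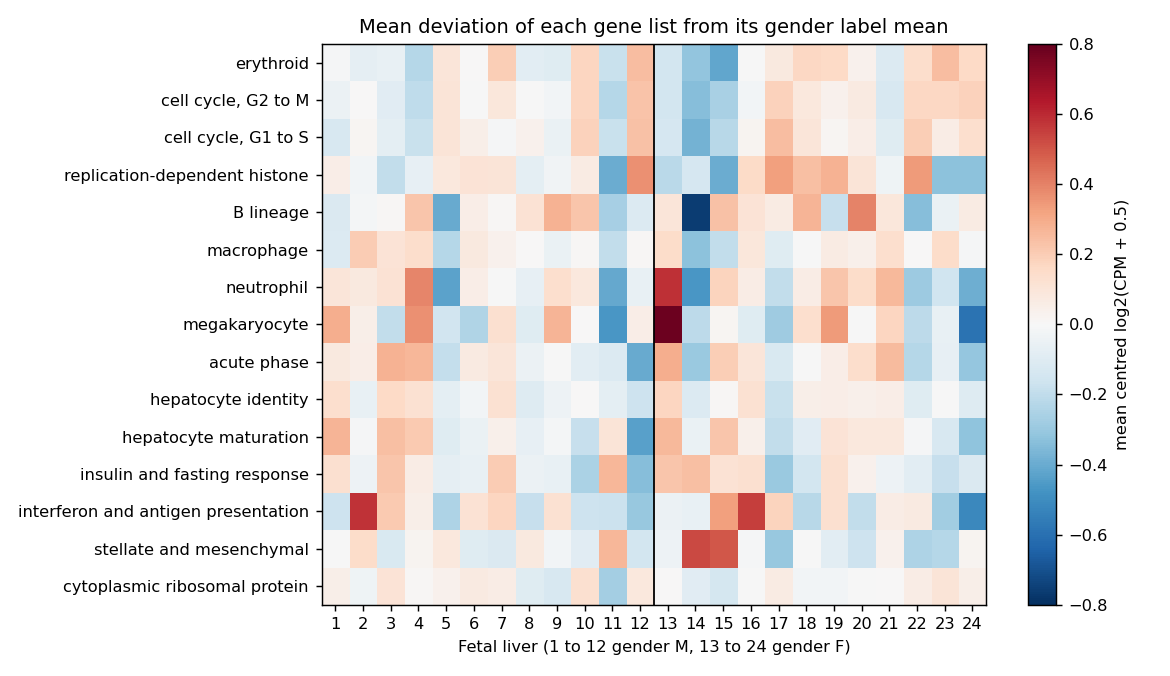
Mean deviation of 15 gene lists (vertical axis) in 24 fetal livers (horizontal axis, with a line between the labels), as the mean over the members of log2(CPM + 0.5) less the label mean. Liver 13 is high for neutrophil (0.59) and megakaryocyte genes (0.78), liver 12 is low for hepatocyte maturation (-0.43), and livers 2 and 16 are high for interferon genes (0.58 and 0.55).

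**Figure D3:**
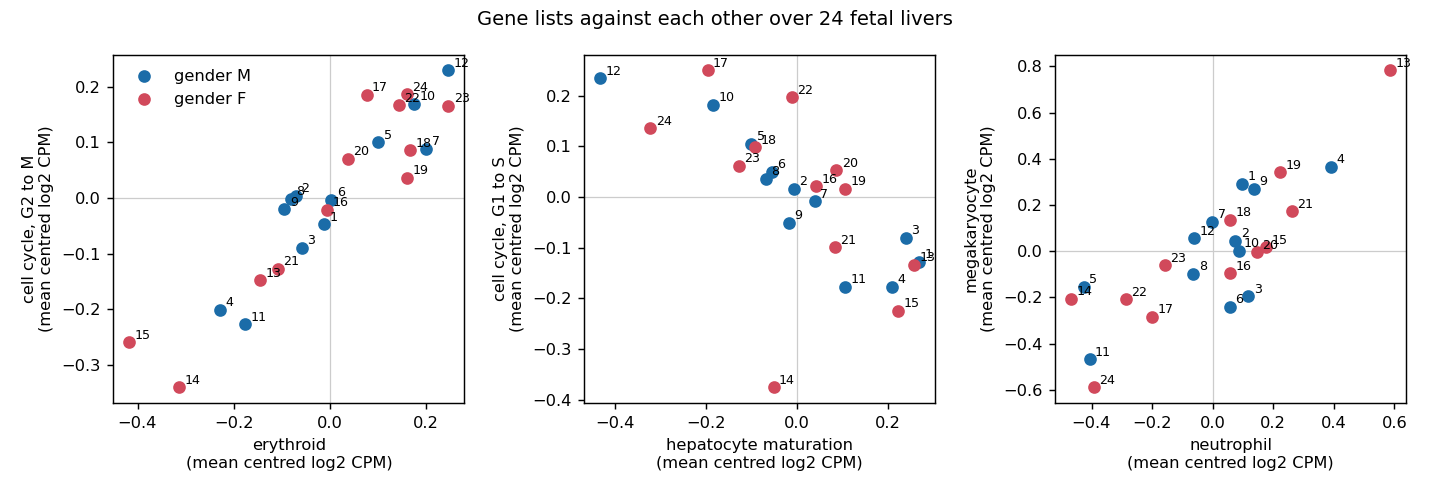
Mean deviations of pairs of gene lists over 24 fetal livers, each point a liver with its number and blue for gender M or red for gender F. The correlations are 0.93 for erythroid and G2 to M genes, -0.69 for maturation and G1 to S genes, where liver 14 sits below the others, and 0.83 for neutrophil and megakaryocyte genes.

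Interferon-induced genes were high in 1 liver of each label. Isg15, a ubiquitin-like antiviral protein gene, was 5.24 to 32.6 CPM in males (median 9.01 CPM), and liver 2 was the highest, with liver 7 next at 13.2 CPM. In females it was 3.23 to 25.3 CPM (median 9.07 CPM), and liver 16 was the highest, with liver 15 next at 17.5 CPM. Rsad2, the gene of the antiviral enzyme viperin, was 380 CPM in liver 2 and 283 CPM in liver 16, against medians of 162 and 152 CPM. Irf7, a transcription factor of the interferon response, was 32.7 and 33.8 CPM in those livers and had the pattern most like Isg15, with a correlation of 0.923. The list's 12 measured of 23 genes had a mean deviation of 0.58 in liver 2 and 0.55 in liver 16, and -0.51 in liver 24. B2m, of antigen presentation, was even, with an SD of 0.103.

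Promoters of Isg15 and Rsad2 are shown for these genes, with GAAANNGAA, the letters of the interferon-stimulated response element, in capitals where either strand matched. The Isg15 promoter (chr4:156200769-156201068, minus strand) held 3 overlapping matches from -78 to -66, and the Rsad2 promoter (chr12:26456403-26456702, minus strand) held 1 at -119, on the opposite strand. The motif was in 4 of 10 matched promoters of the 12 genes and in 8.56% of all promoters. For erythroid genes, AGATAA, the letters of a GATA site, was in 8 of 18 matched promoters of 28 and in 11.3% of all.
Isg15: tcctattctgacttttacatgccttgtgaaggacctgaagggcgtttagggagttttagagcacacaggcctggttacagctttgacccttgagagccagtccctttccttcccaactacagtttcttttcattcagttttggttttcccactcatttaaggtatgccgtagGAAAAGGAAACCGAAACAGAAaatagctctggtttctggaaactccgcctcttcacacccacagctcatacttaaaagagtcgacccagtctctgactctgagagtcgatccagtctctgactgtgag
Rsad2: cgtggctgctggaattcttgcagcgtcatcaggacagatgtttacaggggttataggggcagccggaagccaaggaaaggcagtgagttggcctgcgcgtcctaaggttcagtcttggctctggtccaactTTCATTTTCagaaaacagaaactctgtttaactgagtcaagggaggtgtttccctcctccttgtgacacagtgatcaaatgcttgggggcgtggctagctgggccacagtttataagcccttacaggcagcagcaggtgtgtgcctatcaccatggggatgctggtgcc

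Connective tissue genes were high in livers 11, 14 and 15. Col1a1, the collagen I gene of fibroblasts, was 45.5 to 248 CPM in males (median 72.4 CPM), highest in liver 11, and 21.05 to 112 CPM in females (median 39.7 CPM), highest in liver 14. It led a group of 7 with Fbn2, Igfbp5, Sfrp1, Tead1, Lox and Ltbp4, whose mean deviation was 1.18 in liver 11, 0.992 in liver 14 and 0.934 in liver 15. Fbln2, Vcan, Col12a1 and Eln formed a second group, at 1.44 in liver 15. The elastin gene Eln was 81.3 CPM in liver 15 and 40.0 CPM in liver 14, the next highest. Livers 11, 14 and 15 held 72.3, 56.5 and 392 CPM of Ctrb1 as well, and liver 14 held 1943 CPM of Apoa4, and the part of those tissues in the connective tissue genes was not tested. Without livers 11, 14 and 15 the SD of Col1a1 was 0.440 in place of 0.695.

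The clock gene Per1 was highest in liver 11, at 68.7 CPM, and lowest among males in liver 10, at 17.6 CPM. The zinc-binding metallothionein genes Mt1 and Mt2 varied together at 0.983, and Mt2 ran from 102 to 272 CPM in males and from 56.8 CPM in liver 15 to 221 CPM in liver 24. Genes of cholesterol and fatty acid synthesis were all measured, 21 of 21, with a median SD of 0.195 and a mean pairwise correlation of 0.470.

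Some wide genes belonged to no group. Slc15a2, a peptide transporter gene, was 0.994 CPM in liver 11 and up to 56.1 CPM in males (median 23.2 CPM), and 2.61 to 57.4 CPM in females (median 19.6 CPM), with livers spread over the whole range. Its SD was 1.51, and 1.32 without livers 11, 14 and 15. The unnamed gene 8430408G22Rik was 14.5 to 53.3 CPM in males and 12.8 to 68.4 CPM in females. Lars2, a mitochondrial leucyl-tRNA synthetase gene, was 14.5 to 60.1 CPM in males and 13.4 to 454 CPM in females, with livers 20 (454 CPM), 15 (408 CPM), 21 (166 CPM) and 22 (144 CPM) apart from the rest. Its deviations followed those of a ribosomal RNA repeat entry of the count tables, with a correlation of 0.853 in males and 0.981 in females, and whether reads were shared between them was not tested, so its level is uncertain.

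The spread of single genes did not differ detectably between the labels. Each gene's mean absolute deviation, scaled for the number of livers, had a median over genes of 0.113 in males and 0.117 in females. With limma on the absolute deviations, 0 of 9502 genes (0%) passed an adjusted p of 0.1, and 694 had an unadjusted p under 0.05, 358 of them wider in males. DESeq2 variance stabilised values also gave 0, with 755 at an unadjusted p under 0.05.

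The variation was then set against the reads outside annotated genes, counted in the no_feature row of each table and given as the percent of reads on or outside genes. The percent was 39.9 to 49.0 in males (median 41.8), with liver 11 highest and the next at 44.7, and 34.1 to 38.1 in females (median 35.6), with liver 15 highest and the next at 36.7. The labels did not overlap, so each gene was fitted with gender label and the percent together. With edgeR's quasi-likelihood test, 847 genes (8.91% of those tested) rose with the percent and 629 (6.62%) fell at an adjusted p under 0.1. Without liver 11, 17 rose and 5 (0.0526%) fell. Females alone gave 0 calls by edgeR, with 658 genes at an unadjusted p under 0.05, and males alone 1927. Of the genes called in males alone, 59.8% had the same direction in females, against 55.4% of all genes.

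Genes that rose with the reads outside genes were long. Their span on the genome had a median of 78.6 kb, against 7.39 kb for genes that fell and 25.9 kb for all tested genes. Only 17 genes rose and 5 fell without liver 11, so these spans describe calls that rest mostly on that liver. Spans without liver 11 are not given. Kcnq1ot1, a nuclear antisense RNA of an imprinted cluster, was 745 to 1180 CPM in males and 518 to 709 CPM in females, highest in livers 11 and 15, and rose by 0.075 ± 0.008 (SE) on the log2 scale per percentage point (edgeR adjusted p = 6.41e-06, and 0.000373 without liver 11). The chromatin factor gene Ubn2 rose by 0.085 ± 0.010 (SE) per point (edgeR adjusted p = 3.33e-05, and 0.043 without liver 11). Kif1b, a kinesin gene, and Zfhx4, a homeobox gene, were also called with and without liver 11, and Phactr4 only with it.

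Genes of the cytoplasmic ribosome fell. Of 74 measured ribosomal protein genes, 68 fell with the percent, against 6.62% of all genes, and 1 did so without liver 11. Their median slope was -0.036 per point, and -0.028 without liver 11, against -0.003 and -0.002 for all genes. The relation was weaker in females, where the list's mean deviation had a Pearson correlation of -0.28 with the percent, against -0.90 in males. Rps3, of the small subunit, was 459 to 639 CPM in males and 576 to 700 CPM in females, lowest in livers 11 and 15, and fell by 0.049 ± 0.008 (SE) per point (edgeR adjusted p = 0.000502, and 0.0878 without liver 11). The list varied little, with a median SD of 0.106, but moved as a group, with a mean pairwise correlation of 0.750.

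Of the 25 widest genes 4 were called against the reads outside genes and of the 100 widest 11, beside the 8.91% of all genes that rose and the 6.62% that fell. Of the blood lists 5 of 28 erythroid, 2 of 21 neutrophil, 4 of 13 macrophage and 0 of 11 megakaryocyte genes fell by the edgeR fit, against 6.62% of all genes, and 0 genes of these lists fell without liver 11. Of 23 maturation genes 0 were called in either direction, and of 7 pancreatic genes 0. The median slope of the 7 pancreatic genes was 0.386 per point, and 0.579 without liver 11, against -0.003 and -0.002 for all genes. That of Ctrb1 was 0.377 ± 0.284 (SE), so the lack of calls does not show a lack of relation. The mean deviation of the pancreatic genes had a Pearson correlation of 0.42 with the percent, with 0.38 in males and 0.58 in females, as a description. After the percent was removed by regression, the erythroid and G2 to M lists still had a correlation of 0.92 and the maturation and G1 to S lists one of -0.68.

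**Figure D4:**
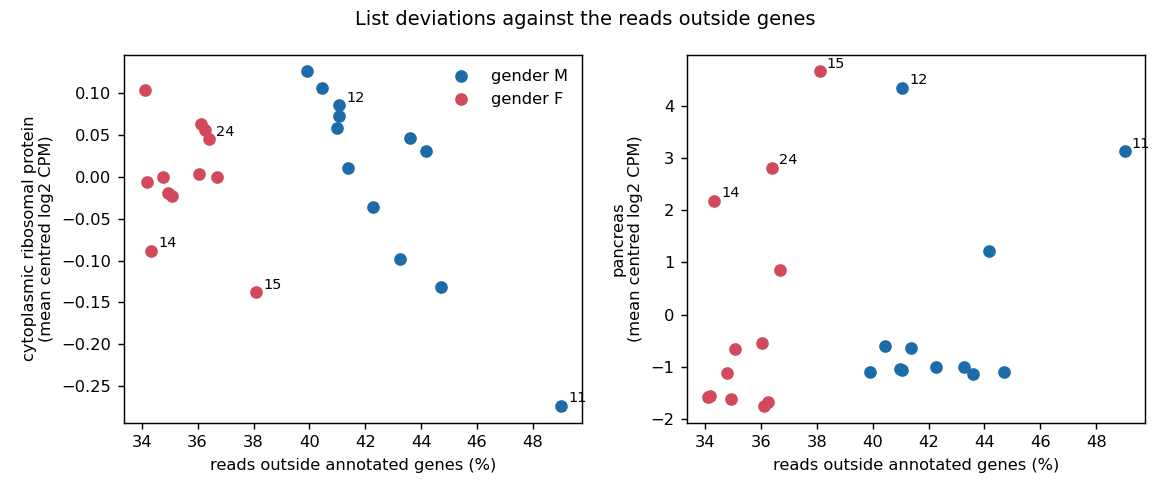
Mean deviation of ribosomal protein genes (left) and pancreatic genes (right) against the percent of reads outside annotated genes, each point a liver and blue for gender M or red for gender F. Liver 11, at 49.0%, is lowest for ribosomal protein genes (-0.27). Livers 11 and 15, with the highest percent of their labels (49.0% and 38.1%), are among the highest for pancreatic genes (3.12 and 4.65). Liver 12, the highest male for pancreatic genes (4.34), is at 41.1%, and liver 14 (2.18) is at 34.3%.

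The first 3 principal components of the deviations held 25.2%, 15.8% and 12.7% of the variance. The first was highest in livers 14, 11 and 15 and its largest positive loadings were on Ctrb1, Dmbt1 and Cel. The second had Cyp2c69 and Prlr at its positive end, where livers 13, 4 and 21 lay, and Cel and Ctrb1 at its negative end with livers 12 and 24. The third was highest in liver 11 and lowest in liver 14. Against the percent of reads outside genes over 24 livers, adjusted over 3 components, the first had a Pearson correlation of 0.32 (permutation p = 0.0486, adjusted 0.0729) and a Spearman correlation of 0.31 (p = 0.111, adjusted 0.167), and -0.07 without livers 11 and 15, the farthest from the median percent. The second had 0.15 (permutation p = 0.487, adjusted 0.487) and Spearman 0.08 (p = 0.708, adjusted 0.708), and 0.02 without those livers. The third had 0.72 (permutation p = 0.00034, adjusted 0.00102) and Spearman 0.51 (p = 0.017, adjusted 0.0511). Without livers 11 and 15 it was 0.42, and within labels 0.79 in males and 0.70 in females. With liver 11 left out, the third component had 0.43 (permutation p adjusted 0.0749), so its relation rests in part on that liver. With liver 12 left out, the second component had 0.63 (permutation p adjusted 0.0018) and the third 0.42 (permutation p adjusted 0.0639), and these components had correlations of 0.54 and 0.50 with those over all livers.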

How the data were processed

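Total RNA from 24 fetal livers was sequenced. The authors mapped reads to mm10 with TopHat2 2.0.4, Bowtie2 2.1.0 and SAMtools 0.1.18, removed duplicates with Picard, which compresses the levels of very abundant genes, and deposited raw read counts per gene from HTSeq. The counting mode, the strand setting and the litter and lane of each sample are not given in the sources used here, so reads from overlapping or antisense genes cannot be told apart. As samples were labelled as separate livers, p-values measure the spread between these samples. The tests took the 24 livers as independent, and livers that share a litter may not be, so p-values could be too small.

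Counts on 23338 genes were scaled with TMM in edgeR 4.0.16 (R 4.3.3), and log2(CPM + 0.5) was centred within gender label over 9502 autosomal genes with a mean CPM of at least 10. The 3 tests were edgeR's quasi-likelihood test with gender label and the percent of reads outside genes, limma 3.58.1 on absolute deviations, and permutation tests (100000 resamples within label, two-sided) of principal components. Each used Benjamini-Hochberg adjustment, with a threshold of 0.1 for genes and 0.05 for components. DESeq2 1.42.0 served as an alternative, with other normalizations, filters, depths and samples. Tables and plots were made in Python 3.11.15 (pandas 2.3.3, matplotlib 3.10.9; scipy 1.17.1; numpy 2.4.6). The edgeR and limma steps were tested on simulated data.

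Named genes were the 25 with the largest SD, up to 4 widest and up to 2 most abundant members of each list, the 5 with the smallest adjusted p in each direction of each test, the 8 largest loadings at each end of the first 2 components and the 5 genes most like each leading gene. All markers of neighbouring organs were also tabulated, and a few of these and of the gut group were named after their values were seen. Values of a few such genes are not reported here. The members and lists were chosen with earlier results of these data known. From the pattern for ribosomal proteins 17 symbols of kinases, a binding protein and pseudogenes were removed. Lists not described in the text gave no result used here. Promoters were matched by symbol to RefSeq on GRCm38.p6.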

Additional observations from a re-analysis of the deposited data

Results flagged for a closer look

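Ribosomal RNA entries, which stood outside the comparisons of autosomal genes, held signal above the level of 3 reads in every fetal liver. The entry Rn45s_split1 reached 2573.4 CPM in male liver 11, against a male median of 1366 CPM and a female range of 589 to 1390 CPM. The entry Rn45s_repeat_masker reached 2678.2 CPM in female liver 15 and 2576 CPM in female liver 20, against medians of 427 CPM in males and 419 CPM in females. Livers 15 and 20 were also the highest for Lars2, at 408 and 454 CPM. Groups of 12 livers were too large for the test of single outlying samples, so none was run.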

How the results depend on the processing

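No paired analysis was possible because the male livers carry the numbers 1 to 12 and the female livers 13 to 24, so the labels share no replicate number. The 1476 genes called with the reads outside genes became 1355 to 1546 with DESeq2 size factors, the DESeq2 Wald test (1058 higher, 488 lower), a mean CPM of at least 1 or no filter, 1178 with the library total added, 1927 in males alone, 1788 without livers 14 and 15 and 1231 without liver 12. They became 4952 without a gender term, 0 in females alone, 22 without liver 11 and 9 without livers 11, 14 and 15. Leaving out livers 11, 12, 14 and 15 was chosen after seeing the data. The count of genes whose spread differed between labels was 0, and 1 without livers 11, 14 and 15. With each gene scaled to an SD of 1, the correlations with the reads outside genes were 0.404 for the first component and 0.563 for the second. With a mean CPM of at least 1 they were 0.714 for the second and 0.036 for the third. Without livers 14 and 15 they were 0.774 for the second and 0.263 for the third, without liver 12 they were 0.634 and 0.419, and the third had 0.425 without liver 11 and 0.201 without livers 11, 14 and 15. Components can change place between settings, and the cause was not tested. Of the SDs of 285 genes named in the tables, 283 moved by less than their error without TMM factors, 280 after thinning, 277 with a pseudocount of 2, 245 after the reads outside genes were removed and 120 with variance stabilised values. Without livers 11, 14 and 15, 156 did, and without liver 12, 273 did. Of the mean pairwise correlations of 32 lists, 31 stayed within their interval in males alone and all 32 under each other setting run. These intervals were wide. The stomach and intestine list stayed within its own while moving from 0.561 to 0.301 without livers 11, 14 and 15. Staying within an interval therefore does not show an unchanged value. Depth limits values near 0.353 to 0.583 CPM.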
